A study of Mus musculus with 11 samples.

Results

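The genes described here encode the subunits of the Polycomb repressive complexes PRC1 and PRC2. They are the 35 genes of a list of subunit symbols, all of which have a row in the count table, among 55291 gene symbols in all. RNA was sequenced from E14 mouse embryonic stem cells, which grew without feeders in medium that held serum, LIF, a GSK3 inhibitor and a MEK inhibitor. The study asked how FACT, a histone chaperone made of SPT16 and SSRP1, bears on gene expression in these cells. In the tagged lines the C terminus of SPT16 ends in a V5 tag and an auxin-inducible degron (AID), so that indole-3-acetic acid (IAA) can direct it to degradation. The tagged lines were 2 independently targeted lines, 10E and 11D by their column codes. The tagged IAA group (SPT16-V5-AID, 500 nM IAA for 24 h) held 3 libraries, 1 of 10E and 2 of 11D. The tagged EtOH group (SPT16-V5-AID, 0.1% ethanol for 24 h) held 4 libraries, 2 of each line. The untagged IAA group (E14 without the degron, column code TIR1, 500 nM IAA for 24 h) held 3 libraries of 1 line. The labels do not tell whether replicates are separate cultures, and p-values therefore reflect the scatter among these libraries, which may be technical.

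PRC2 methylates lysine residues of histone H3 and PRC1 ubiquitinates histone H2A, and together these marks keep developmental genes silent in embryonic stem cells. PRC2 has a core of a methyltransferase (EZH1 or EZH2) with EED, SUZ12 and RBBP4 or RBBP7, to which either the Polycomb-like proteins or JARID2 and AEBP2 attach. PRC1 has a RING1 or RNF2 ligase and 1 of the PCGF proteins. Canonical PRC1 adds CBX and PHC proteins and reads the methyl mark, while variant PRC1 carries RYBP or YAF2 and is directed by other subunits such as KDM2B or L3MBTL2.

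Most Polycomb subunit transcripts were lower after IAA in the tagged lines, and a small set was higher, with the highest fold changes in Pcgf5 and Bmi1. Of the 35 genes, all of which passed the filter on low counts, 21 (60.0%) were lower in tagged IAA than in tagged EtOH and 8 (22.9%) were higher at a false discovery rate (FDR) under 0.05 in edgeR's quasi-likelihood test. Over all genes tested the shares were 28.1% lower and 29.3% higher, so the higher count was near the background and the lower count above it. The median log2 fold change was -0.43 over the subunits and 0.03 over all genes tested. Changes of at least 2-fold were seen in 11 lower and 2 higher subunits, where 9.75% of all genes were lower and 17.7% were higher by that rule. The 11 include Phf19 and Cbx8, whose calls rest on few counts. The filter needed a single library to reach its level, so the background includes genes that tagged IAA alone could carry through. The values of the groups did not overlap, in CPM (counts divided by library size and scaled by TMM factors), for 18 lower and 7 higher subunits, against 24.8% and 27.7% of all genes. These counts depend on the scaling: with library totals in place of TMM factors 12 subunits were lower and 10 higher, so that 45.5% of the called subunits were higher, against 27.6% with TMM. Over all genes 73.0% of the calls were higher with library totals and 51.0% with TMM. That scaling moved the median of all genes by 0.33 on the log2 scale, and 24 of the 35 subunits then lay below the median of all genes. The number of higher subunits was 5 with no filter on low counts, and also when 11D IAA replicate 1, 10E IAA replicate 1 or 11D EtOH replicate 1 was left out.

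Summed over the 35 genes, the subunits took 3148 to 3289 CPM in tagged IAA, 5046 to 5689 CPM in tagged EtOH and 5526 to 5977 CPM in untagged IAA. As a share of all counts, with no TMM scaling, the subunits held 0.372% ± 0.00347 in tagged IAA (SD, n = 3), 0.491% ± 0.0215 in tagged EtOH (SD, n = 4) and 0.544% ± 0.0240 in untagged IAA (SD, n = 3). The tagged IAA libraries were thus the lowest on either scale, with no overlap. Fewer cells of a type and less RNA per cell cannot be told apart in such bulk libraries.

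Library totals were 3100127 to 13510163 counts. The Supt16 transcript had 253 to 286 CPM in tagged IAA, 364 to 416 CPM in tagged EtOH and 538 to 577 CPM in untagged IAA, and since the degron acts on the protein this does not measure the loss of SPT16. All 10 embryonic stem cell markers were above 1 CPM in every group, and all 10 were lower in tagged IAA, with sums of 2909 to 3241 CPM, than in tagged EtOH, with sums of 7461 to 9192 CPM. Of the 4 neural progenitor markers 3 were higher. The sums over all 4 were 65.5 to 85.5 CPM in tagged IAA and 33.7 to 44.8 CPM in tagged EtOH. Among the higher ones Pax6 and Neurog2 averaged 1.14 and 0.978 CPM in tagged IAA, and 0.182 and 0.0448 CPM in tagged EtOH. Tagged IAA alone could carry such genes through the filter on low counts, so these calls are descriptive only. Of the 5 primitive endoderm markers 4 were tested and 2 were higher. The sums over all 5 were 11.7 to 17.3 CPM in tagged IAA and 3.42 to 8.77 CPM in tagged EtOH. Gata4 and Gata6 were not called, and Sox17 was not tested. Of the 6 trophectoderm markers 1 was higher and 2 were lower, with Elf5 at 0 in tagged IAA, and of the 5 fibroblast markers none was called, with Postn at 0 in both groups. Over all genes tested 29.3% were higher and 28.1% were lower. The part of these marker differences in the subunits' values was not tested. In 11D EtOH replicate 1 the transcript CT010467.1 held 4.27% of the counts, and in 10E EtOH replicate 2 it held 2.64%. Without these 2 libraries 5 subunits were higher.

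**Figure D1:**
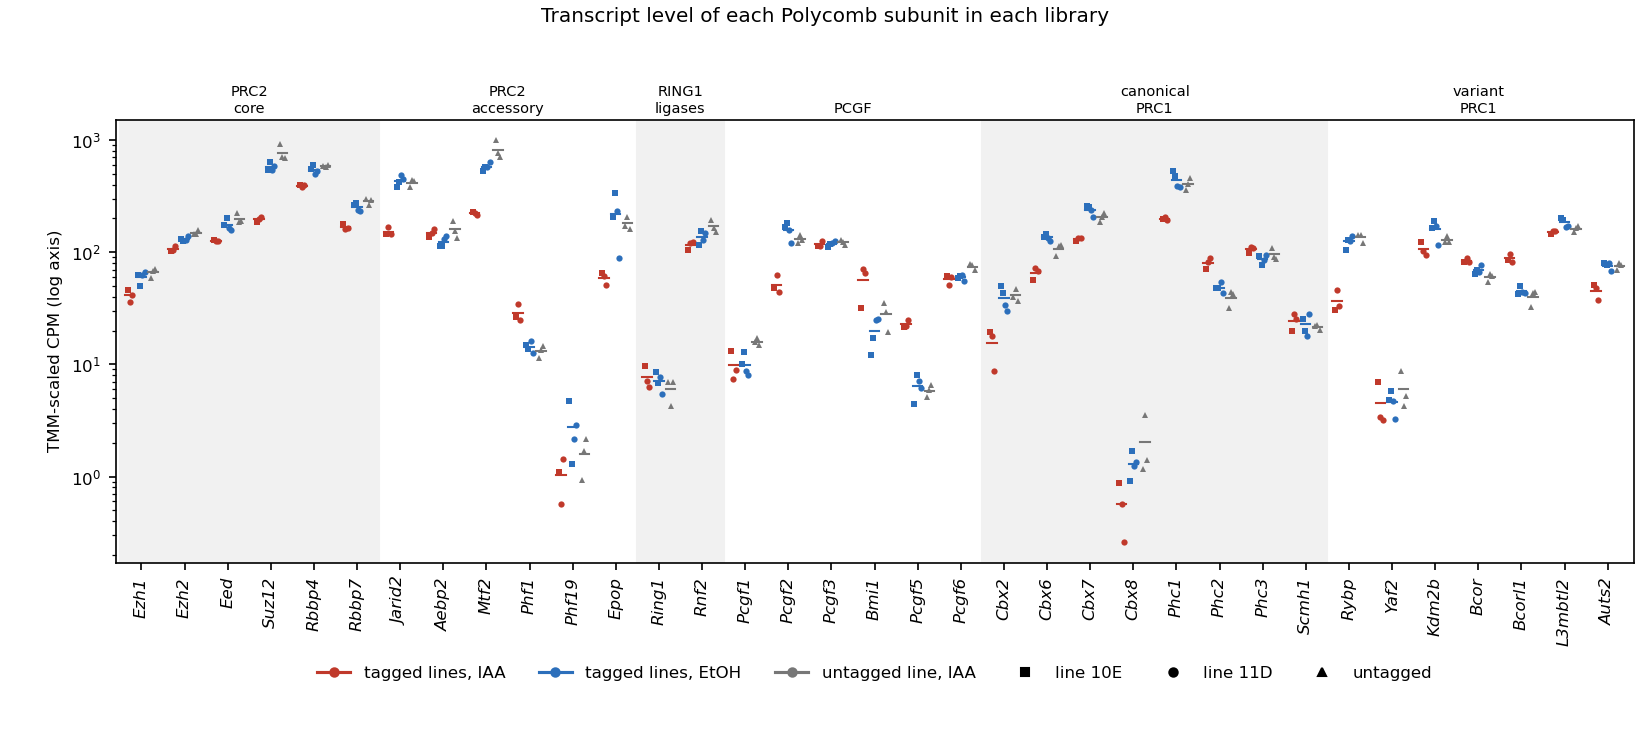
Level of each of the 35 Polycomb subunit transcripts in TMM-scaled CPM on a log axis, with 1 point per library and a bar at each group's mean; tagged IAA is in red, tagged EtOH in blue and untagged IAA in grey. The red points lie below the blue ones for 18 genes and above them for 7.

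To show where these genes start, the 250 bases before the annotated start are printed for 4 of them: Suz12 and Mtf2, which have the lowest fold changes, and Pcgf5 and Bmi1, which have the highest, among called subunits with at least 10 CPM in tagged IAA or tagged EtOH and a RefSeq start within 100 bases of the GENCODE one. The sequences are RefSeq's on GRCm38.p6, all from the + strand, at chr11:79992856-79993105 for Suz12, chr5:108065424-108065673 for Mtf2, chr19:36348079-36348328 for Pcgf5 and chr2:18676768-18677017 for Bmi1. Capitals mark the Sp1/KLF box GGGCGG and the NF-Y box CCAAT on either strand.
Suz12: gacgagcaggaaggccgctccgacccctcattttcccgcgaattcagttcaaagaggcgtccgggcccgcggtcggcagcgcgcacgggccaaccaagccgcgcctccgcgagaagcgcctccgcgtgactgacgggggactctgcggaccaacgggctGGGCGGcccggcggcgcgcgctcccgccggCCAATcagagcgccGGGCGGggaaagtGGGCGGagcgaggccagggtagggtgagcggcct
Mtf2: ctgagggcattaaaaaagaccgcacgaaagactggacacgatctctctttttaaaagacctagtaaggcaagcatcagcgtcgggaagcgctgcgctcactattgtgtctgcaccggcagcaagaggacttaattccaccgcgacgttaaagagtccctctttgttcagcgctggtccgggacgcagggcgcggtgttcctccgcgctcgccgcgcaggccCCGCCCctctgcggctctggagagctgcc
Pcgf5: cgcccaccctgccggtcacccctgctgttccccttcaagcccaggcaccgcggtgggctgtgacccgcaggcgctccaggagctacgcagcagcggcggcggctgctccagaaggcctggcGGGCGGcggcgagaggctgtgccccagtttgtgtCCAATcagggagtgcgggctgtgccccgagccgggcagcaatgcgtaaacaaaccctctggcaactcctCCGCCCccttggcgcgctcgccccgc
Bmi1: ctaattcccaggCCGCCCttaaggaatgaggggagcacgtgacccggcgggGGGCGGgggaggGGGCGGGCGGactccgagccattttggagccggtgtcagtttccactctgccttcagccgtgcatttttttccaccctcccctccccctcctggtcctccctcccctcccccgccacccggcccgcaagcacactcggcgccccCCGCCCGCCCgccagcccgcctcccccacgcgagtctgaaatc
The 250 bases hold 37 CpG dinucleotides before Suz12, 23 before Mtf2, 23 before Pcgf5 and 21 before Bmi1. The GGGCGG box has 3 matches before Suz12, 1 before Mtf2, 2 before Pcgf5 and 6 before Bmi1, so it stands before genes that fell and before genes that rose. CCAAT has 1 match each before Suz12 and Pcgf5.

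RefSeq windows were found for 29 of the 35 subunits, 42 windows in all. Their median was 20 CpG and 65.4% G or C, against 6 CpG and 52.4% over all 32851 windows of the same length. GGGCGG was in 66.7% of the subunits' windows and in 32.7% of all windows, while CCAAT was in 33.3% of the subunits' windows and in 33.8% of all windows. The E-box CACGTG was in 19.0% of the subunits' windows and 6.02% of all windows, the AhR core GCGTG in 57.1% and 28.2%, and the NRF1 core in 14.3% and 3.74%. The TATA box TATAAA was in 2.38% of the subunits' windows and 12.4% of all windows. The ETS site CCGGAAG, the YY1 core AAGATGG and the AP-1 site TGANTCA were each in 2.38% of the subunits' windows, against 6.91%, 4.49% and 6.75% of all windows. A share of 2.38% is 1 window of the 42, too few to show a difference from all windows. Of the 29 subunits 21 had 1 window, so the others count more than once. Both strands were searched. The NRF1 core leaves a base free, and with some choices of that base a match contains the AhR core. The shares of the NRF1 and AhR cores are therefore not independent. None of the other motifs contains another. A match is a description of these letters only.

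All 6 PRC2 core genes were lower in tagged IAA than in tagged EtOH, and their groups did not overlap. Over all genes tested 28.1% were lower and 29.3% higher, and 24.8% were lower without overlap. These shares also belong beside the subgroup counts given below. Under library totals Suz12 and Rbbp7 kept the call, while Ezh1 (log2 fold change -0.23), Eed (-0.10), Rbbp4 (-0.12) and Ezh2 (0.02) did not pass. Suz12 (chromosome 11, 79993106 to 80034123, + strand, GRCm38), which encodes the scaffold that holds the core together, had 184, 199 and 207 CPM in the tagged IAA libraries, against 542, 638, 538 and 580 CPM in the tagged EtOH libraries and 916, 712 and 688 CPM in the untagged IAA libraries. Every tagged IAA library was far below every other library. The log2 fold change was -1.56 ± 0.10 (SE, edgeR FDR 5.56e-09). The other core genes moved less. Eed, whose product binds the methyl mark, had 129, 127 and 125 CPM in tagged IAA, against 175, 200, 163 and 159 CPM in tagged EtOH. Its log2 fold change was -0.43 ± 0.09 (edgeR FDR 7.54e-04).

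Ezh2, the main methyltransferase of dividing cells, had 102, 105 and 114 CPM in tagged IAA, against 130, 127, 128 and 140 CPM in tagged EtOH. Its tagged IAA libraries lay just below the others, with a log2 fold change of -0.31 ± 0.09 (edgeR FDR 0.00707). The direction of Ezh2 thus rests on the scaling. Ezh1, the second methyltransferase, had 46.1, 35.6 and 41.9 CPM in tagged IAA, against 62.2, 50.2, 63.2 and 66.2 CPM in tagged EtOH, and its log2 fold change was -0.56 ± 0.13 (edgeR FDR 0.00144). Rbbp4 and Rbbp7 encode histone-binding proteins that PRC2 shares with deacetylase complexes. Rbbp4 had 381 to 401 CPM in tagged IAA and 493 to 600 CPM in tagged EtOH, a log2 fold change of -0.46. Rbbp7 had 161 to 178 CPM in tagged IAA and 234 to 272 CPM in tagged EtOH, a log2 fold change of -0.56. Per kilobase of exon, Suz12 was the highest of the 35 subunits in tagged EtOH, at 116 ± 9.31 CPM per kb (SD, n = 4), and the third in tagged IAA, at 39.7 ± 2.30 CPM per kb (SD, n = 3), behind Rbbp7 and Rbbp4.

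Among the 6 PRC2 accessory genes 4 were lower and 2 higher. Jarid2, a substrate-binding cofactor related to lysine demethylases, had 146, 166 and 146 CPM in tagged IAA, against 382, 419, 486 and 445 CPM in tagged EtOH and 378, 444 and 429 CPM in untagged IAA. The tagged IAA values were clear of both other groups, with a log2 fold change of -1.54 ± 0.09 (edgeR FDR 3.51e-09). Mtf2, the main Polycomb-like protein of embryonic stem cells, had 228, 222 and 216 CPM in tagged IAA, against 531, 574, 579 and 632 CPM in tagged EtOH and 997, 758 and 709 CPM in untagged IAA. The 3 groups formed separate levels for Mtf2, and the log2 fold change against tagged EtOH was -1.40 ± 0.09 (edgeR FDR 8.04e-09).

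Phf1, another Polycomb-like gene, went the other way. It had 26.5, 34.2 and 25.03 CPM in tagged IAA, against 14.8, 13.6, 16.2 and 12.7 CPM in tagged EtOH and 11.3, 13.3 and 14.5 CPM in untagged IAA. Every tagged IAA library was above every other library, with a log2 fold change of 0.98 ± 0.16 (edgeR FDR 8.29e-05). Exons of the opposite-strand gene Cuta cover 39.3% of the exon bases of Phf1, and the strand setting of the counting is not given in the sources used here, so reads of the pair cannot be told apart. Phf19, the third Polycomb-like gene, was barely detected, with 1.10, 0.570 and 1.42 CPM in tagged IAA and 4.71, 1.28, 2.18 and 2.87 CPM in tagged EtOH. Its groups overlap, and its log2 fold change of -1.22 ± 0.49 (edgeR FDR 0.0436) kept the call in 6 of 15 alternative settings.

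Epop, whose product links PRC2 to Elongin BC, had 65.6, 61.0 and 51.1 CPM in tagged IAA, against 207, 338, 234 and 89.4 CPM in tagged EtOH and 172, 207 and 161 CPM in untagged IAA. It had the widest spread among the tagged EtOH libraries of the PRC2 genes above 10 CPM, yet the lowest of those libraries was above all tagged IAA libraries. The log2 fold change was -1.73 ± 0.26 (edgeR FDR 3.26e-05). Aebp2, a zinc finger cofactor, had 136, 149 and 161 CPM in tagged IAA, against 113, 114, 131 and 138 CPM in tagged EtOH and 189, 155 and 133 CPM in untagged IAA. These groups overlap. The log2 fold change against tagged EtOH was 0.22 ± 0.09 (edgeR FDR 0.0376), and the call held in 6 of 15 settings.

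The RING1 ligases changed little. Rnf2, the main H2A ligase in embryonic stem cells, had 104, 121 and 124 CPM in tagged IAA, against 116, 156, 128 and 149 CPM in tagged EtOH and 195, 164 and 152 CPM in untagged IAA. Its groups overlap between the 2 treatments of the tagged lines. The log2 fold change of -0.27 ± 0.11 (edgeR FDR 0.0479) passed narrowly, held in 4 of 15 settings and was 0.07 under library totals. Ring1, its paralog, had 6.27 to 9.65 CPM in tagged IAA and 5.47 to 8.51 CPM in tagged EtOH and was not called, with a log2 fold change of 0.17 ± 0.22. Per kilobase, Rnf2 made up 92.1% ± 2.39 of the pair in tagged IAA (SD, n = 3), against 93.6% ± 1.85 in tagged EtOH (SD, n = 4).

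Of the 6 PCGF genes, whose products decide which kind of PRC1 forms, 2 were higher, 1 was lower and 3 were not called. Pcgf2 (chromosome 11, 97688823 to 97700497, - strand), which encodes the MEL18 protein of canonical PRC1, had 47.6, 63.0 and 43.7 CPM in tagged IAA, against 166, 181, 159 and 120 CPM in tagged EtOH and 120, 142 and 129 CPM in untagged IAA. All tagged IAA libraries lay well below the others, with a log2 fold change of -1.59 ± 0.15 (edgeR FDR 2.09e-07). Bmi1 (chromosome 2, 18677018 to 18686629, + strand), the other canonical PCGF gene, had 31.6, 71.3 and 64.8 CPM in tagged IAA, against 12.0, 17.2, 24.6 and 25.1 CPM in tagged EtOH and 35.4, 29.0 and 19.5 CPM in untagged IAA. The tagged IAA libraries were above all tagged EtOH libraries, the 10E library being the lowest of the 3 and lying within the range of the untagged line. The log2 fold change against tagged EtOH was 1.31 ± 0.14 (edgeR FDR 1.14e-06).

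Pcgf5 (chromosome 19, 36348309 to 36460970, + strand), which serves a variant PRC1 together with Pcgf3, had 21.7, 21.9 and 24.8 CPM in tagged IAA, against 4.45, 8.00, 7.16 and 6.18 CPM in tagged EtOH and 5.09, 5.90 and 6.52 CPM in untagged IAA. The tagged IAA libraries formed a tight group above all others, and the log2 fold change of 1.81 ± 0.19 (edgeR FDR 1.10e-06) was the highest of the 35 subunits. Pcgf3 itself had 114 to 124 CPM in tagged IAA and 110 to 125 CPM in tagged EtOH, with a log2 fold change of -0.03 ± 0.09, and was not called. Pcgf6, of the variant PRC1 with L3MBTL2, had 50.7 to 61.2 CPM in tagged IAA and 54.9 to 63.2 CPM in tagged EtOH and was not called. Under library totals Pcgf3 and Pcgf6 were both called higher, with log2 fold changes of 0.30. Pcgf1, the partner of KDM2B and BCOR, had 7.41 to 13.2 CPM in tagged IAA and 7.98 to 12.9 CPM in tagged EtOH and was not called.

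The makeup of the PCGF family, by CPM per kilobase of exon, therefore differed between the groups. Pcgf2 made up 24.2% ± 3.80 of the family sum in tagged IAA (SD, n = 3), 55.1% ± 4.51 in tagged EtOH (SD, n = 4) and 45.3% ± 3.25 in untagged IAA (SD, n = 3). Bmi1 made up 23.0% ± 7.49 in tagged IAA, 6.31% ± 2.40 in tagged EtOH and 8.57% ± 2.28 in untagged IAA. Pcgf5 made up 3.01% ± 0.263 in tagged IAA, 0.636% ± 0.130 in tagged EtOH and 0.568% ± 0.0920 in untagged IAA. By this measure Pcgf5 stayed a small part of the family in spite of its fold change. The measure rests on merged exon length, which is 12.6 kb for Pcgf5 and 1.65 kb for Pcgf1. In CPM without that division, Pcgf5 averaged 22.8 and Pcgf1 9.85 in tagged IAA. The family sum was 60.2 ± 4.51 CPM per kb in tagged IAA, 80.2 ± 7.91 CPM per kb in tagged EtOH and 81.7 ± 4.76 CPM per kb in untagged IAA.

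**Figure D2:**
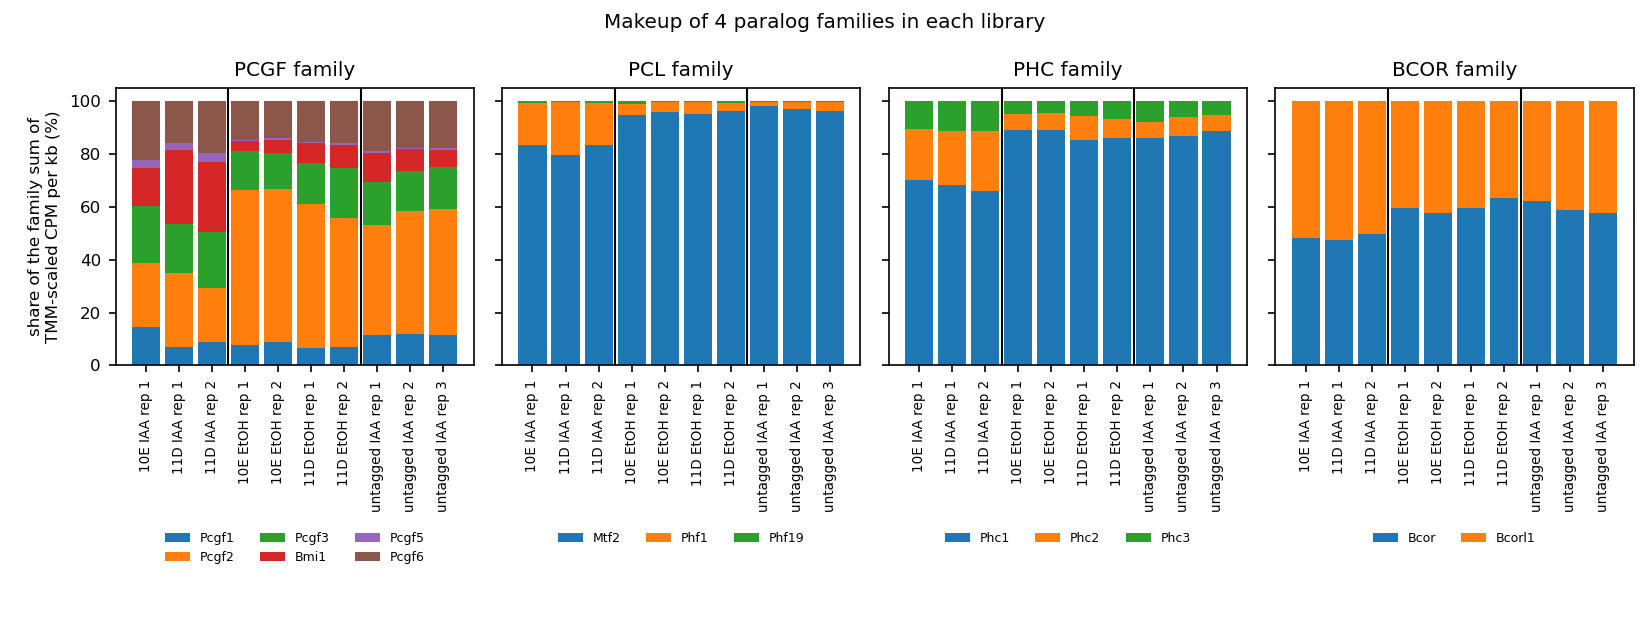
Makeup of 4 paralog families in each library, as the percentage of the family's summed TMM-scaled CPM per kb that each gene holds; black lines separate tagged IAA (left), tagged EtOH and untagged IAA. Pcgf2 holds 20.3% to 27.9% of the PCGF sum in tagged IAA and 48.9% to 58.9% in tagged EtOH, and Phf1, Phc2 and Bcorl1 hold larger shares in tagged IAA than in the other groups.

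Of the 8 canonical PRC1 genes outside the PCGF family 5 were lower and 2 higher. Cbx7, the main reader of the methyl mark in embryonic stem cells, had 125, 134 and 134 CPM in tagged IAA, against 257, 254, 238 and 207 CPM in tagged EtOH and 184, 207 and 222 CPM in untagged IAA. Its tagged IAA libraries were the lowest, with a log2 fold change of -0.85 ± 0.10 (edgeR FDR 2.05e-06). Cbx6, a further reader, had 56.1, 72.1 and 67.4 CPM in tagged IAA, against 137, 145, 134 and 125 CPM in tagged EtOH, and its log2 fold change was -1.07 ± 0.11 (edgeR FDR 6.35e-07). Exons of Npcd, on the same strand, cover 5.31% of those of Cbx6. Cbx2, a reader that compacts chromatin, had 19.3, 18.0 and 8.79 CPM in tagged IAA, against 49.6, 43.1, 33.6 and 29.8 CPM in tagged EtOH, and its log2 fold change was -1.34 ± 0.19 (edgeR FDR 2.38e-05). Cbx8 had 0.259 to 0.877 CPM in tagged IAA and 0.917 to 1.68 CPM in tagged EtOH, a log2 fold change of -1.43 ± 0.58 (edgeR FDR 0.0435). That call rests on few counts and held in 4 of the 10 settings in which Cbx8 was tested. Within the CBX family Cbx7 held 67.2% ± 3.26 of the sum per kilobase in tagged IAA, 62.4% ± 1.05 in tagged EtOH and 60.8% ± 2.28 in untagged IAA, while the sum itself was 30.1 ± 1.46 CPM per kb in tagged IAA and 59.1 ± 6.16 CPM per kb in tagged EtOH.

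The PHC genes encode proteins that polymerise through a SAM domain and cluster PRC1. Phc1, the main one in these cells, had 196, 205 and 192 CPM in tagged IAA, against 523, 481, 385 and 377 CPM in tagged EtOH and 357, 407 and 454 CPM in untagged IAA. The tagged IAA libraries were far below the rest, with a log2 fold change of -1.11 ± 0.10 (edgeR FDR 2.61e-07). Phc2 had 71.1, 81.8 and 88.5 CPM in tagged IAA, against 47.5, 48.3, 53.8 and 43.3 CPM in tagged EtOH and 31.7, 44.2 and 41.9 CPM in untagged IAA. Here the tagged IAA libraries were the highest, and the log2 fold change was 0.72 ± 0.11 (edgeR FDR 4.54e-05). Phc3 had 97.8, 112 and 110 CPM in tagged IAA, against 91.8, 76.4, 84.3 and 93.9 CPM in tagged EtOH, a log2 fold change of 0.26 ± 0.10 (edgeR FDR 0.0329) that held in 8 of 15 settings. In untagged IAA Phc3 had 109, 91.2 and 86.5 CPM, which overlap the tagged IAA values. Phc1 made up 68.1% ± 2.18 of the PHC sum per kilobase in tagged IAA, 87.4% ± 1.96 in tagged EtOH and 87.4% ± 1.25 in untagged IAA, and Phc2 made up 20.8% ± 1.82 in tagged IAA, 7.29% ± 1.24 in tagged EtOH and 6.32% ± 0.677 in untagged IAA. Scmh1, which encodes a protein with MBT repeats that binds PHC proteins, had 19.96 to 27.9 CPM in tagged IAA and 18.1 to 28.3 CPM in tagged EtOH and was not called.

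Of the 7 variant PRC1 genes 4 were lower, 2 were higher and 1 was not called. Rybp (chromosome 6, 100228565 to 100287485, - strand), which encodes the subunit that takes the place of CBX proteins and stimulates the ligase, had 30.3, 45.6 and 33.0 CPM in tagged IAA, against 104, 128, 126 and 140 CPM in tagged EtOH and 143, 144 and 120 CPM in untagged IAA. The highest tagged IAA library was below every other library by a wide margin. Its log2 fold change of -1.86 ± 0.13 (edgeR FDR 1.13e-08) was the lowest of the 35 subunits. Yaf2, its paralog, had 3.17 to 7.02 CPM in tagged IAA and 3.23 to 5.83 CPM in tagged EtOH and was not called, with a log2 fold change of 0.06 ± 0.26.

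Bcorl1, a partner of PCGF1 related to BCOR, had 85.5, 96.9 and 81.0 CPM in tagged IAA, against 42.2, 49.5, 43.9 and 43.2 CPM in tagged EtOH and 32.4, 43.5 and 43.8 CPM in untagged IAA. All tagged IAA libraries were above all others, with a log2 fold change of 0.96 ± 0.11 (edgeR FDR 1.89e-06). Bcor had 80.9, 88.6 and 81.4 CPM in tagged IAA, against 63.5, 69.0, 66.0 and 76.1 CPM in tagged EtOH, and a log2 fold change of 0.25 ± 0.10 (edgeR FDR 0.0384). The groups did not overlap for Bcor, and its call held in 9 of 15 settings. Bcorl1 made up 51.6% ± 1.20 of the BCOR and BCORL1 sum per kilobase in tagged IAA, 39.9% ± 2.35 in tagged EtOH and 40.3% ± 2.22 in untagged IAA.

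Kdm2b, whose CXXC domain binds unmethylated CpG and directs the PCGF1 complex, had 124, 102 and 94.2 CPM in tagged IAA, against 165, 188, 171 and 116 CPM in tagged EtOH and 124, 140 and 123 CPM in untagged IAA. Its groups overlap through 11D EtOH replicate 2 and 10E IAA replicate 1, and the log2 fold change was -0.53 ± 0.12 (edgeR FDR 0.00112). L3mbtl2, a reader with MBT repeats in the PCGF6 complex, had 144, 156 and 154 CPM in tagged IAA, against 202, 194, 169 and 172 CPM in tagged EtOH. In untagged IAA it had 150, 164 and 170 CPM, which overlap the tagged IAA values. Its log2 fold change against tagged EtOH was -0.27 ± 0.09 (edgeR FDR 0.0218) and 0.06 under library totals. Exons of the opposite-strand gene Chadl cover 17.2% of its exon bases. Auts2, which in variant PRC1 with PCGF3 or PCGF5 has been tied to gene activation in neural cells, had 50.7, 47.6 and 37.6 CPM in tagged IAA, against 79.4, 76.4, 80.0 and 67.2 CPM in tagged EtOH. Its groups did not overlap, with a log2 fold change of -0.74 ± 0.12 (edgeR FDR 6.09e-05).

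Across 15 alternative settings, 5 of the 8 higher subunits (Pcgf5, Bmi1, Phf1, Bcorl1 and Phc2) and 12 of the 21 lower ones (Suz12, Rbbp7, Jarid2, Mtf2, Epop, Pcgf2, Cbx2, Cbx6, Cbx7, Phc1, Rybp and Auts2) kept their calls in every setting. The other calls were lost in at least 1 setting. No such share was computed for all genes, so these counts are not set against a background. The settings reuse the same libraries.

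**Figure D3:**
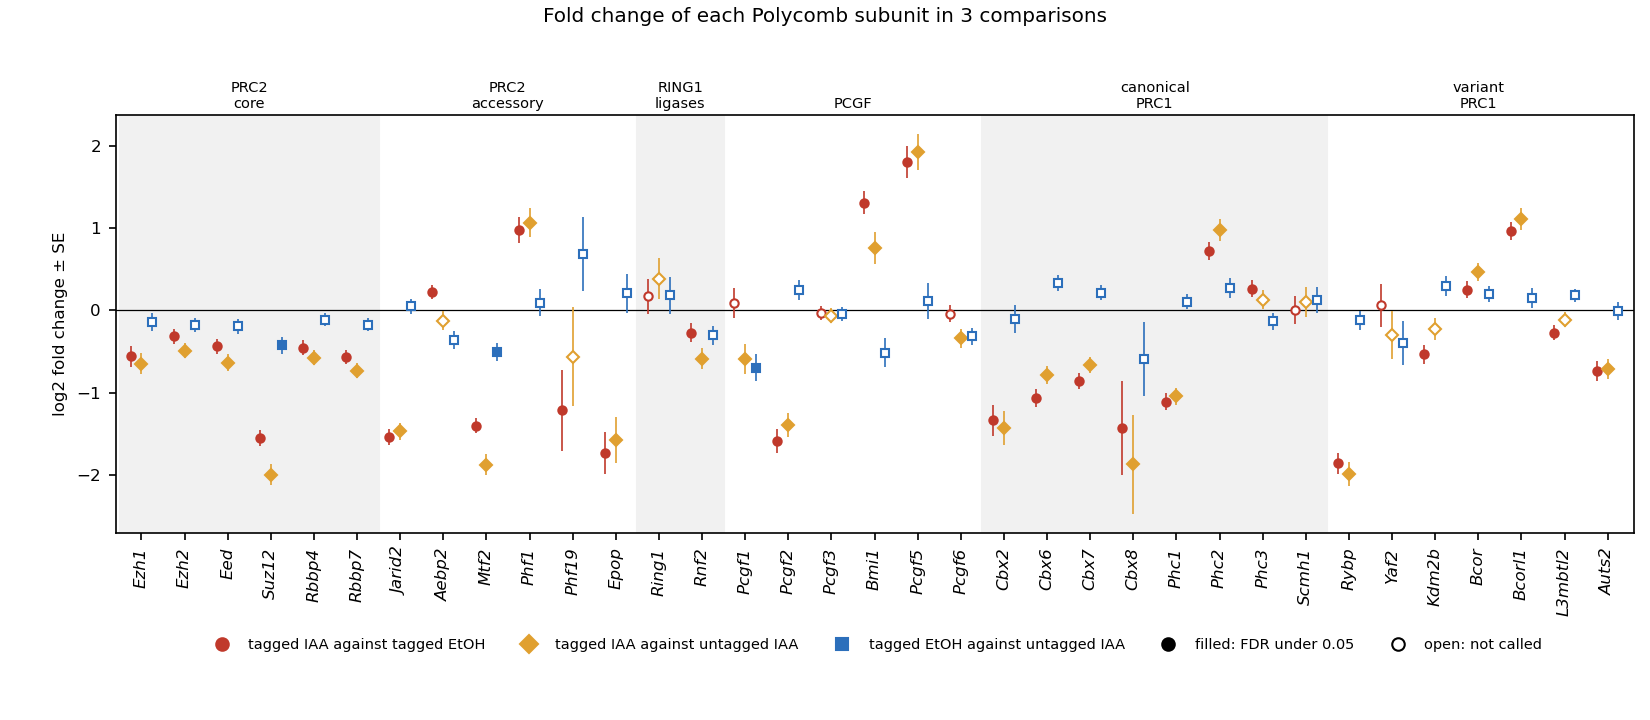
Log2 fold change with its standard error for each of the 35 Polycomb subunits in tagged IAA against tagged EtOH (red circles), tagged IAA against untagged IAA (yellow diamonds) and tagged EtOH against untagged IAA (blue squares), with filled symbols at an edgeR FDR under 0.05. Rybp is the lowest of the red circles, at -1.86, and Pcgf5 the highest, at 1.81, while 3 of the blue squares are filled.

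The ratio of 2 paralogs within a library does not depend on scaling between libraries, and 10 such pairs were compared. The log2 ratio of Bmi1 to Pcgf2 counts averaged 0.05 ± 0.59 in tagged IAA (SD, n = 3), -3.03 ± 0.68 in tagged EtOH (SD, n = 4) and -2.26 ± 0.49 in untagged IAA (SD, n = 3), so that the 2 genes had about equal counts only in tagged IAA. The tagged IAA values were 3.08 higher than those of tagged EtOH. The log2 ratio of Pcgf5 to Pcgf3 averaged -2.36 ± 0.03 in tagged IAA and -4.21 ± 0.32 in tagged EtOH, a difference of 1.85. The log2 ratio of Phc1 to Phc2 averaged 1.30 ± 0.17 in tagged IAA and 3.18 ± 0.27 in tagged EtOH, a difference of -1.88. For Rybp to Yaf2 the averages were 3.05 ± 0.84 in tagged IAA and 4.75 ± 0.47 in tagged EtOH, a difference of -1.70. For Bcor to Bcorl1 they were -0.07 ± 0.07 in tagged IAA and 0.62 ± 0.14 in tagged EtOH, a difference of -0.68.

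In each of these 5 pairs the tagged IAA and tagged EtOH libraries did not overlap, which gives an exact two-sided permutation p of 0.0571 (0.114 after Benjamini-Hochberg adjustment over the 10 pairs). With 3 libraries against 4 this is the smallest p that the 35 arrangements allow, so none of the pairs could pass 0.05. The arrangements took no account of line. Of all single genes 27.7% were higher and 24.8% lower without overlap, and no such share was computed for pairs of genes. The groups overlap in the other 5 pairs. The log2 ratio of Ezh2 to Ezh1 averaged 1.38 ± 0.22 in tagged IAA and 1.12 ± 0.14 in tagged EtOH (exact permutation p = 0.114), and that of Rbbp4 to Rbbp7 averaged 1.22 ± 0.07 in tagged IAA and 1.11 ± 0.06 in tagged EtOH (exact permutation p = 0.114). For Rnf2 to Ring1 the difference was -0.33 (exact permutation p = 0.400), for Cbx7 to Cbx2 it was 0.53 (exact permutation p = 0.229), and for Mtf2 to Phf19 it was -0.13 (exact permutation p = 0.857).

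**Figure D4:**
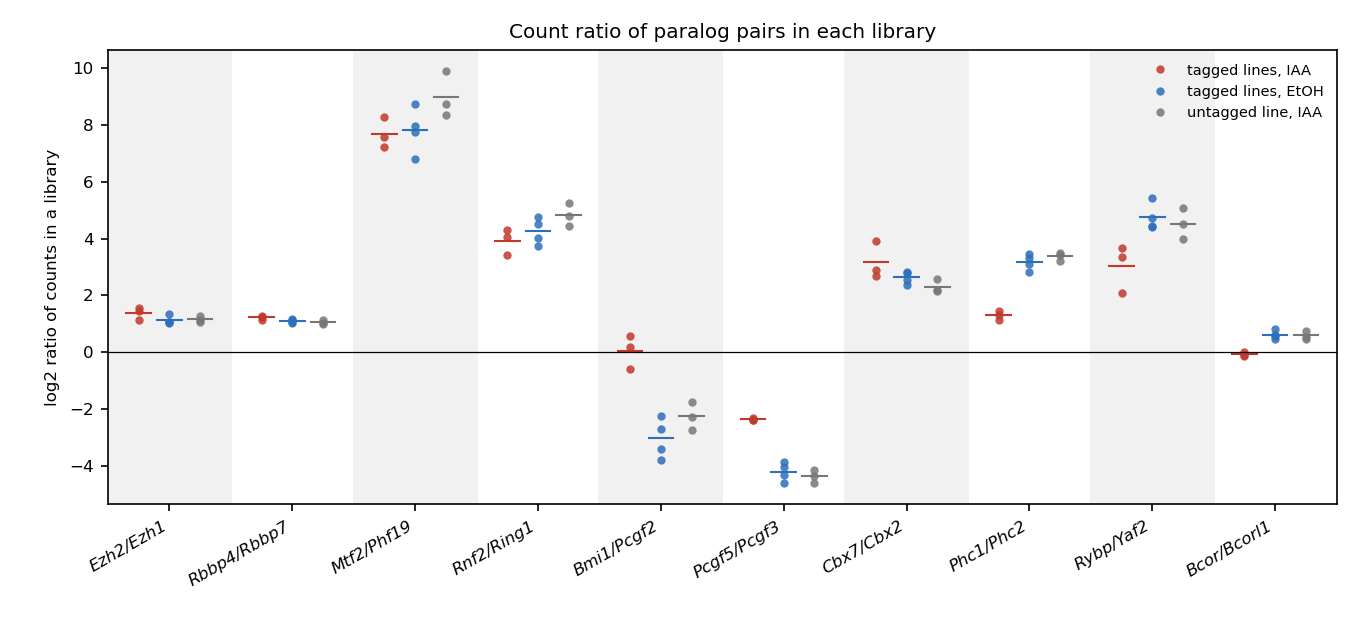
Log2 ratio of the counts of 10 pairs of Polycomb paralogs in each library, with a bar at each group's mean; red is tagged IAA, blue tagged EtOH and grey untagged IAA. Red and blue points are apart for Bmi1/Pcgf2, Pcgf5/Pcgf3, Phc1/Phc2, Rybp/Yaf2 and Bcor/Bcorl1 and overlap for the other 5 pairs.

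Set against the untagged line under the same IAA treatment, the tagged IAA libraries had 20 lower (57.1%) and 6 higher (17.1%) subunits at an edgeR FDR under 0.05, where 27.8% of all genes were lower and 27.9% were higher. This comparison shares the tagged IAA libraries with the one above, so its values are given beside the others and are no separate support. Bmi1 had a log2 fold change of 0.76 ± 0.19 against untagged IAA (edgeR FDR 0.00378) and 1.31 ± 0.14 against tagged EtOH, and its tagged IAA and untagged IAA libraries overlap. Suz12 had -1.997 ± 0.13 against untagged IAA and -1.56 ± 0.10 against tagged EtOH, and Mtf2 had -1.88 ± 0.13 against untagged IAA and -1.40 ± 0.09 against tagged EtOH. Pcgf1 and Pcgf6, which were not called against tagged EtOH, were lower than in untagged IAA, with log2 fold changes of -0.59 ± 0.18 (edgeR FDR 0.0129) and -0.34 ± 0.11 (edgeR FDR 0.0207). Aebp2, Phf19, Phc3, Kdm2b and L3mbtl2 were called against tagged EtOH and were not called against untagged IAA, with log2 fold changes between -0.56 for Phf19 and 0.13 for Phc3. Aebp2 changed sign, with 0.22 against tagged EtOH and -0.12 against untagged IAA. Ring1, Pcgf3, Yaf2 and Scmh1 were called in neither comparison.

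Without IAA in the tagged lines, few subunits were called against the untagged cells. In tagged EtOH against untagged IAA 3 subunits (8.57%) were lower and 0 were higher at an edgeR FDR under 0.05, against 2.29% and 1.27% of all genes, and 14 of the 35 (40.0%) had an unadjusted p under 0.05, against 22.3% of all genes. DESeq2 called 1 subunit higher. The lower ones were Pcgf1 (log2 fold change -0.70 ± 0.16, edgeR FDR 0.0330), Mtf2 (-0.50 ± 0.11, FDR 0.0237) and Suz12 (-0.42 ± 0.11, FDR 0.0409). Pcgf1 had 10.1, 12.9, 8.71 and 7.98 CPM in tagged EtOH, against 15.7, 17.2 and 14.8 CPM in untagged IAA, with no overlap. These calls rest on single libraries: 0 subunits were lower without 10E EtOH replicate 1, without 11D EtOH replicate 1, without untagged IAA replicate 1 or without untagged IAA replicate 2, 1 was lower without 11D IAA replicate 2, and 5 were lower without untagged IAA replicate 3. Tag and treatment differ together in this comparison and cannot be told apart.

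Of the 35 subunits 32 had the same sign of fold change in 10E and in 11D, among them all 29 called ones. No such share was computed for all genes, so the 32 cannot be read as particular to the subunits. The calls came from these same libraries of both lines, so the shared sign of the 29 is no separate support. For the line by treatment difference (11D minus 10E) 0 subunits were called in edgeR or DESeq2, and in edgeR 0% of all genes were. An unadjusted p under 0.05 was found for 2 subunits (5.71%), near the 4.87% of all genes. Pcgf2 had a log2 fold change of -1.41 in 11D and -1.88 in 10E, and Bmi1 had 1.44 in 11D and 1.09 in 10E. With 1 IAA library of 10E, its fit assumes that this library varies like the others.

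In the authors' deposited table, a DESeq2 comparison of IAA with EtOH, 16 subunits were lower and 6 higher at an adjusted p under 0.05, against 17.8% and 18.8% of all genes in it. The authors' deposited table gives Rybp a log2 fold change of -1.80 and Pcgf5 one of 1.93. Ezh2, Rnf2, L3mbtl2, Phf19, Cbx8, Aebp2 and Phc3 did not pass in the authors' deposited table.

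The list of 44 other Polycomb pathway genes holds further partners of PRC1, the subunits of the deubiquitinase complex PR-DUB, and enzymes that remove the marks. Of these, 23 were lower and 11 higher in tagged IAA than in tagged EtOH, with a median log2 fold change of -0.35. The shares over all genes were 28.1% lower and 29.3% higher, so the higher count was near the background. Foxk2, a forkhead factor that binds PR-DUB, had 35.3, 39.3 and 36.1 CPM in tagged IAA, against 104, 119, 111 and 114 CPM in tagged EtOH, a log2 fold change of -1.62 ± 0.10 (edgeR FDR 5.83e-09). Wdr5, a WD-repeat protein of the PCGF6 complex and of the MLL complexes, had a log2 fold change of -1.43 ± 0.10, Lcor, a PRC2 cofactor gene, one of -1.37 ± 0.10, and Usp7, a deubiquitinase of variant PRC1, one of -1.26 ± 0.09. Usp16, a deubiquitinase of histone H2A, was among the higher ones, with 98.0, 93.8 and 89.4 CPM in tagged IAA, against 38.9, 44.0, 41.1 and 46.9 CPM in tagged EtOH, and its log2 fold change was 1.12 ± 0.10 (edgeR FDR 2.51e-07). Kdm1b (a histone H3 demethylase), Sfmbt1 (an MBT protein) and Dcaf7 (a partner of PCGF3 and PCGF5) had log2 fold changes of 0.76 ± 0.12, 0.73 ± 0.14 and 0.49 ± 0.09.

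Of a list of 39 developmental genes that Polycomb is known to silence in embryonic stem cells, 21 passed the filter on low counts. Of these, 12 were higher and 2 lower in tagged IAA, where 29.3% of all genes were higher and 28.1% were lower. Of the 12 higher genes 7 averaged under 1 CPM in tagged EtOH. The filter needed a single library to reach its level, since 10E has 1 IAA library, so tagged IAA alone could carry a gene through. The count of 12 therefore says nothing about the list as a whole, and 18 genes were not tested. The count of higher genes was 7 without 10E IAA replicate 1. Hoxb9, a posterior homeobox gene, had 44.5, 50.4 and 50.6 CPM in tagged IAA, against 3.54, 5.73, 8.09 and 4.57 CPM in tagged EtOH, a log2 fold change of 3.18 ± 0.18 (edgeR FDR 2.47e-09). Neurod1 and Msx1, of neural and of limb and craniofacial development, had log2 fold changes of 3.51 ± 0.38 and 3.20 ± 0.48 from fewer than 3 CPM in every tagged EtOH library. Both averaged under 1 CPM in tagged EtOH and are among those 7 genes, so their fold changes are descriptive only. The lower genes were Eomes (-1.50 ± 0.24), a T-box factor, and Hoxc4 (-2.35 ± 0.43).

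**Figure D5:**
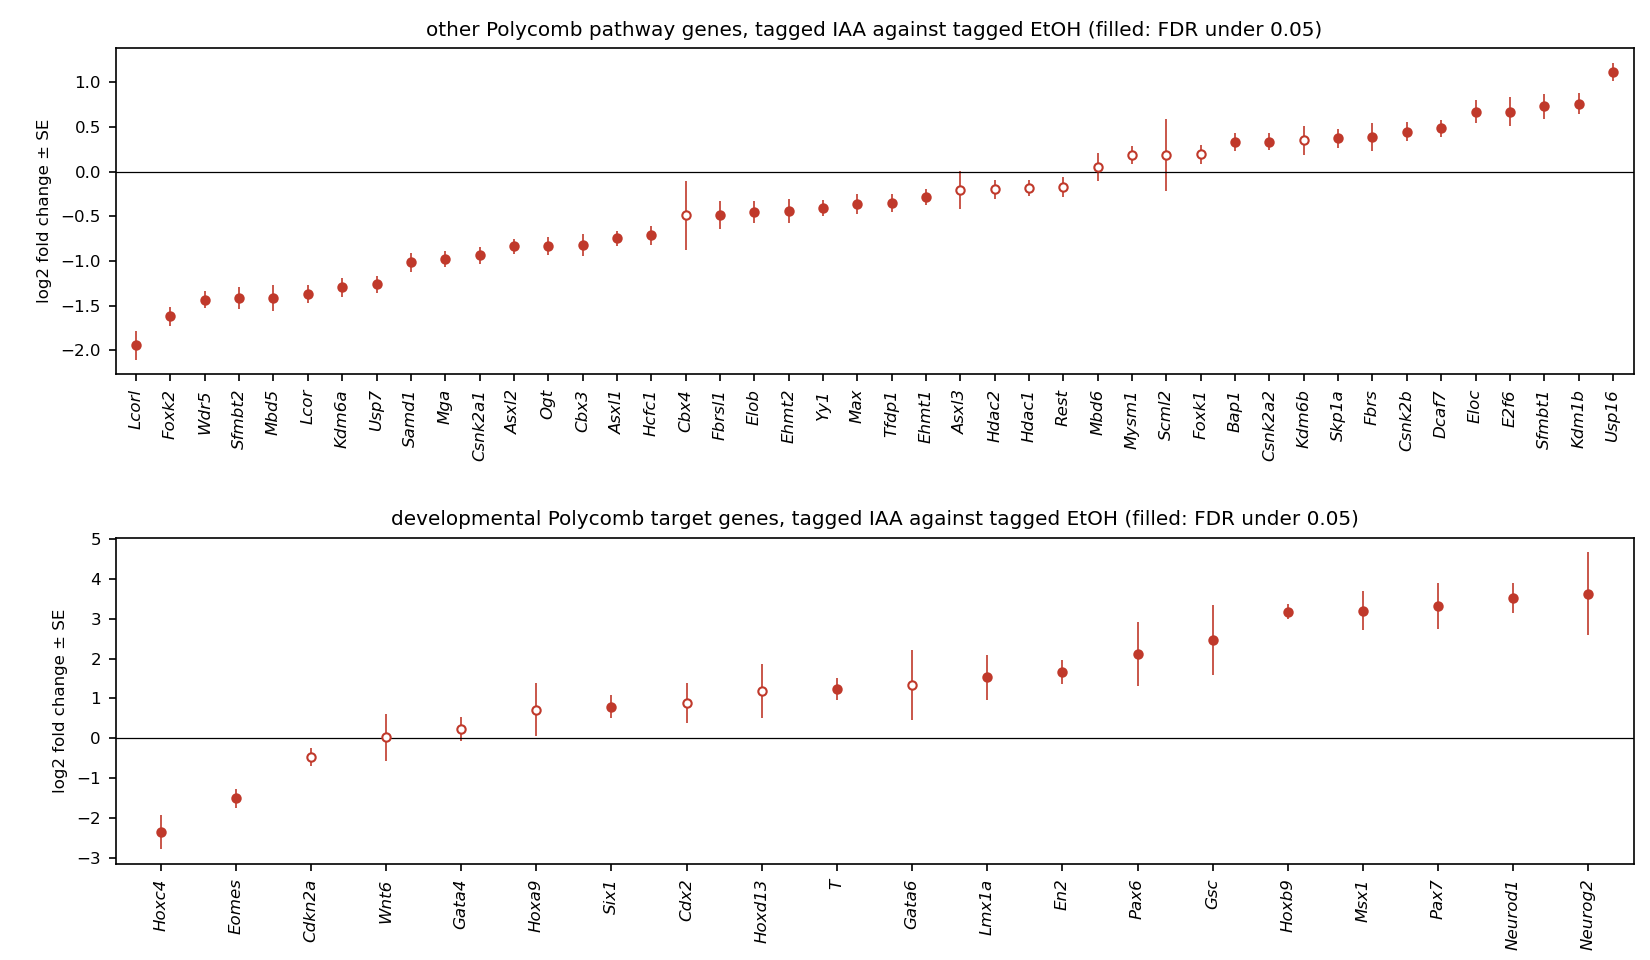
Log2 fold change with its standard error in tagged IAA against tagged EtOH for the 44 other Polycomb pathway genes (top) and for developmental Polycomb target genes that were tested (bottom), sorted by value, with filled points at an edgeR FDR under 0.05. Foxk2, Wdr5, Lcor and Usp7 are near the low end of the upper panel, and Usp16 is its highest point.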

How the data were processed

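Per the labels' protocols, RNA was extracted with TRIzol and libraries were made with the NEBNext Directional kit. The authors deposited whole-number read counts per gene symbol, without normalization. STAR, deepTools and mm10 are named in the submitters' processing notes; no version, read counter, annotation or strand setting is given in the sources used here. The authors' deposited comparison table holds, per the file headers, the mean normalized signal per gene (base mean), a log2 fold change with its standard error, a Wald statistic (a score), a p-value and an adjusted p-value from DESeq2; it was used for description only.

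The labels list 11 samples, and the count table holds 10 libraries, 7 of them tagged. Columns coded TIR1 were read as untagged: no other code has an IAA replicate 3 or lacks EtOH, which in the labels holds for the untagged line; the codes 10E and 11D could not be matched to clone numbers. Replicate pairs differed beyond counting noise, with chi-square values of 3.05 to 28.9 per degree of freedom.

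Counts were tested with edgeR 4.0.16 in R 4.3.3 (quasi-likelihood F test, TMM factors, filterByExpr by line and treatment) across all 17904 genes that passed, with Benjamini-Hochberg adjustment over all of them and an FDR threshold of 0.05. IAA was set against EtOH in the 7 tagged libraries, with a term for line. For comparisons with untagged cells all 10 libraries entered, tagged lines averaged, with 17439 genes. The standard error (SE) was taken as the size of the log2 fold change over the square root of F. CPM are scaled by TMM over all 10 libraries, and per-kilobase values use merged GENCODE M21 exons (GRCm38); 53292 gene symbols of the table are names in that annotation. Exons of 13 of the 35 subunit genes overlap those of another gene. Paralog ratios used counts plus 0.5 and an exact permutation test over libraries (scipy 1.17.1). Steps were tested on simulated data in which few genes changed, up and down in equal numbers, so the scaling was not tested there. Alternatives were library totals, DESeq2 1.42.0, no filter on low counts, no line term, a replicate block, 1 fit of all 10 libraries, a pseudocount of 5, leaving out each library, leaving out the 2 tagged EtOH libraries richest in CT010467.1, and, chosen after seeing the data, a filter on the 3 groups.

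All 35 subunits are named, and up to 4 called genes per direction with the smallest FDR are named from each further list; 1 gene that this rule names is not reported here. The subunits and the lists were chosen with earlier results of these data known.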

Additional observations from a re-analysis of the deposited data

How the results depend on the processing

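Depth limits the genes under about 5 CPM, Phf19, Cbx8 and Yaf2, and the tagged IAA group rests on 3 libraries, 1 of them from 10E. With library totals 12 subunits were lower in tagged IAA than in tagged EtOH, against 21 with TMM. The number of higher subunits, 8, was 5 with no filter on low counts, 5 without the 2 tagged EtOH libraries richest in CT010467.1, and 5 to 8 when single libraries were left out. The developmental targets that were higher numbered 7 to 11 when single libraries were left out. In tagged EtOH against untagged IAA DESeq2 called 1 subunit higher, no filter on low counts gave 5 lower ones, and leaving out single libraries gave 0 to 1 higher and 0 to 5 lower ones. The cause was not tested.

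Directions reversed for several subunits, among them Ezh2, Rnf2 and L3mbtl2, which were called lower than in tagged EtOH with TMM. Against tagged EtOH, library totals gave log2 fold changes of 0.0168 for Ezh2, 0.0650 for Rnf2, 0.30 for Pcgf3, 0.30 for Pcgf6 and 0.0612 for L3mbtl2. DESeq2 gave 0.00827 for Pcgf3 and 0.00381 for Pcgf6. Scmh1 had -0.0232 with no filter on low counts, -0.0195 in 1 fit of all 10 libraries and -0.22 without the 2 libraries richest in CT010467.1, where Pcgf6 had 0.0184. With no line term Pcgf1 had -0.0340 and Yaf2 -0.0868, and with the filter on the 3 groups Pcgf3 had 0.00692. Leaving out single libraries gave -0.19 to 0.21 for Yaf2, -0.0661 to 0.00350 for Pcgf3, -0.0723 to 0.0180 for Pcgf6 and -0.15 to 0.17 for Scmh1. Against untagged IAA, library totals gave 0.17 for Aebp2, 0.23 for Pcgf3, 0.0692 for Kdm2b and 0.19 for L3mbtl2. Auts2 had 0.00427 in tagged EtOH against untagged IAA with no filter. The Mtf2 to Phf19 difference was 0.41 without the 2 libraries richest in CT010467.1 and -0.47 to 0.18 when single libraries were left out.

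With the replicate block 8 subunits were higher and 19 lower in tagged IAA than in tagged EtOH, with 10 and 23 of the other pathway genes and 9 and 2 of the developmental targets. The samples share only a number: deviations of the 2 pairs of 11D had a correlation of 0.156, and 10E holds 1 IAA library. The line by treatment difference could not be fitted without 10E IAA replicate 1.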
